A study of Mus musculus with 16 samples.

Results

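The genes described here encode the machinery that brings pyruvate into mitochondria, turns it into acetyl-CoA and burns it in the citric acid cycle, with the shuttle that carries reducing equivalents across the inner membrane. The list holds 29 genes, taken by gene symbol from the 17737 genes of the deposited count table. All 29 were found, and all 29 were among the 13381 genes that passed the filter on low counts. By role, 8 belong to pyruvate entry and oxidation, 16 to the citric acid cycle and 5 to the malate-aspartate shuttle.

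Hearts came from male C57BL/6 mice that were 6 weeks old at the start and then ate 1 of 4 diets for 6 months, in a study of diet in cardiac ageing and fibrosis. Chow was a standard rodent feed, NIA and UW were primate diets, and mNIA was the NIA diet with its sucrose and fat set to those of UW. Each diet had 4 animals, assigned at random, and each library came from the ventricles of 1 animal. All groups were wild-type males of 1 strain, and no drug or transgene was used. Groups were taken from the titles of the samples, and the diet label gives the same groups. The library codes do not spell the primate diets of the titles (CC for Chow, MNC for NIA, NC for UW and UC for mNIA). Whether titles or codes are right could not be checked, so comparisons of single primate diets rest on those titles.

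In heart muscle most ATP comes from mitochondrial oxidation. The mitochondrial pyruvate carrier (Mpc1, Mpc2) imports pyruvate, and the pyruvate dehydrogenase complex converts it to acetyl-CoA, the entry point that fatty acids share. The citric acid cycle then oxidises acetyl-CoA and feeds electrons to the respiratory chain, and the malate-aspartate shuttle brings in the electrons of cytosolic NADH. Promoters of such genes are known targets of oestrogen-related receptors, nuclear respiratory factor 1 and the ETS factor GABP.

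Because the 29 genes moved together between animals, as described below, their promoters were searched for the letters these factors bind. RefSeq windows (GRCm38.p6, 250 bases before to 50 after a transcript start) were matched for 26 of the 29 genes. Matches are shown on the strand of the gene, 5′ to 3′, with the matched letters in capitals. For Got1 the 250 bases before the start are given, and for the others the 30 bases around the match.
Sdhd, chr9:50603800-50603829, minus strand, first letter of the match 36 bases after the start: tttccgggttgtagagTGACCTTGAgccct
Ogdh, chr11:6292154-6292183, plus strand, match beginning 5 bases before a start: ggacacggcgcTGACCTTggtgcctgcggc
Ogdh, chr11:6292533-6292562, plus strand, match beginning 15 bases before another start: taggtgttgtGCGCATGCGtaactcaactt
Dlst, chr12:85110822-85110851, plus strand, match beginning at the start: cggccggtctcACTTCCGGttgctgccggg
Got1, chr19:43524606-43524855, minus strand, match beginning 245 bases before the start: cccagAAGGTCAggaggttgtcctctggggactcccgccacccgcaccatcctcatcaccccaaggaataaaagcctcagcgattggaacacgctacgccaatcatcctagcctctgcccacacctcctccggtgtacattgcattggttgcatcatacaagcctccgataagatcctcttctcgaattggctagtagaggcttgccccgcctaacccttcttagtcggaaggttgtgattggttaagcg

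The extended oestrogen-related receptor site TCAAGGTCA, read on either strand, was present in 1 of the 26 genes (Sdhd) and in 0.466% of all genes with a window. Its core AAGGTCA, which lies inside the longer motif, was present in 3 (Got1, Ogdh and Sdhd) and in 5.38% of all genes. The nuclear respiratory factor 1 core GCGCATGCG was found in Ogdh (1.95% of all genes) and the GABP letters CCGGAAGT in Dlst (4.31%). A match is a description of letters in a window and shows no binding, and most of the 26 genes held none of these 4 motifs.

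Library totals ran from 2278223 counts (NIA 4) to 63005361 (NIA 2), with the other 14 between 3143343 and 6583503. The smallest count of any of the 29 genes in any library was 121 (Pdp1), so counting error was small beside the spread between animals. The fitted variation between animals, as the square root of the common dispersion, amounted to 0.278. Of the 16 libraries, 4 had a limma quality weight under 0.5: Chow 3 (0.23), NIA 1 (0.30), NIA 4 (0.16) and mNIA 2 (0.36). All 10 cardiomyocyte markers (such as Myh6, Tnnt2 and Ttn) were above 0 in every library, and the summed level of the 2 listed atrial markers present was at most 5.69 CPM (TMM-scaled, as all CPM here). In bulk tissue, fewer cells of a type and less RNA per cell cannot be told apart.

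Within every diet the 29 genes split the animals. The level of the list in a library, taken as the median over its genes of the deviation of log2 CPM from the mean of that gene over the 16 libraries, was -1.28 in Chow 3 against 0.24, 0.17 and 0.08 in the other chow hearts. It was -0.41 in UW 1 against 0.19, 0.17 and 0.14, and -0.38 in mNIA 2 against 0.31, 0.37 and 0.29. In NIA the hearts lay 2 against 2, at 0.38 (NIA 1), -0.35 (NIA 2), -0.41 (NIA 3) and 0.48 (NIA 4). By diet the level averaged -0.20 ± 0.73 on Chow, 0.03 ± 0.47 on NIA, 0.02 ± 0.29 on UW and 0.15 ± 0.35 on mNIA (SD, n = 4), so the means lay closer together than the hearts of 1 diet.

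**Figure D1:**
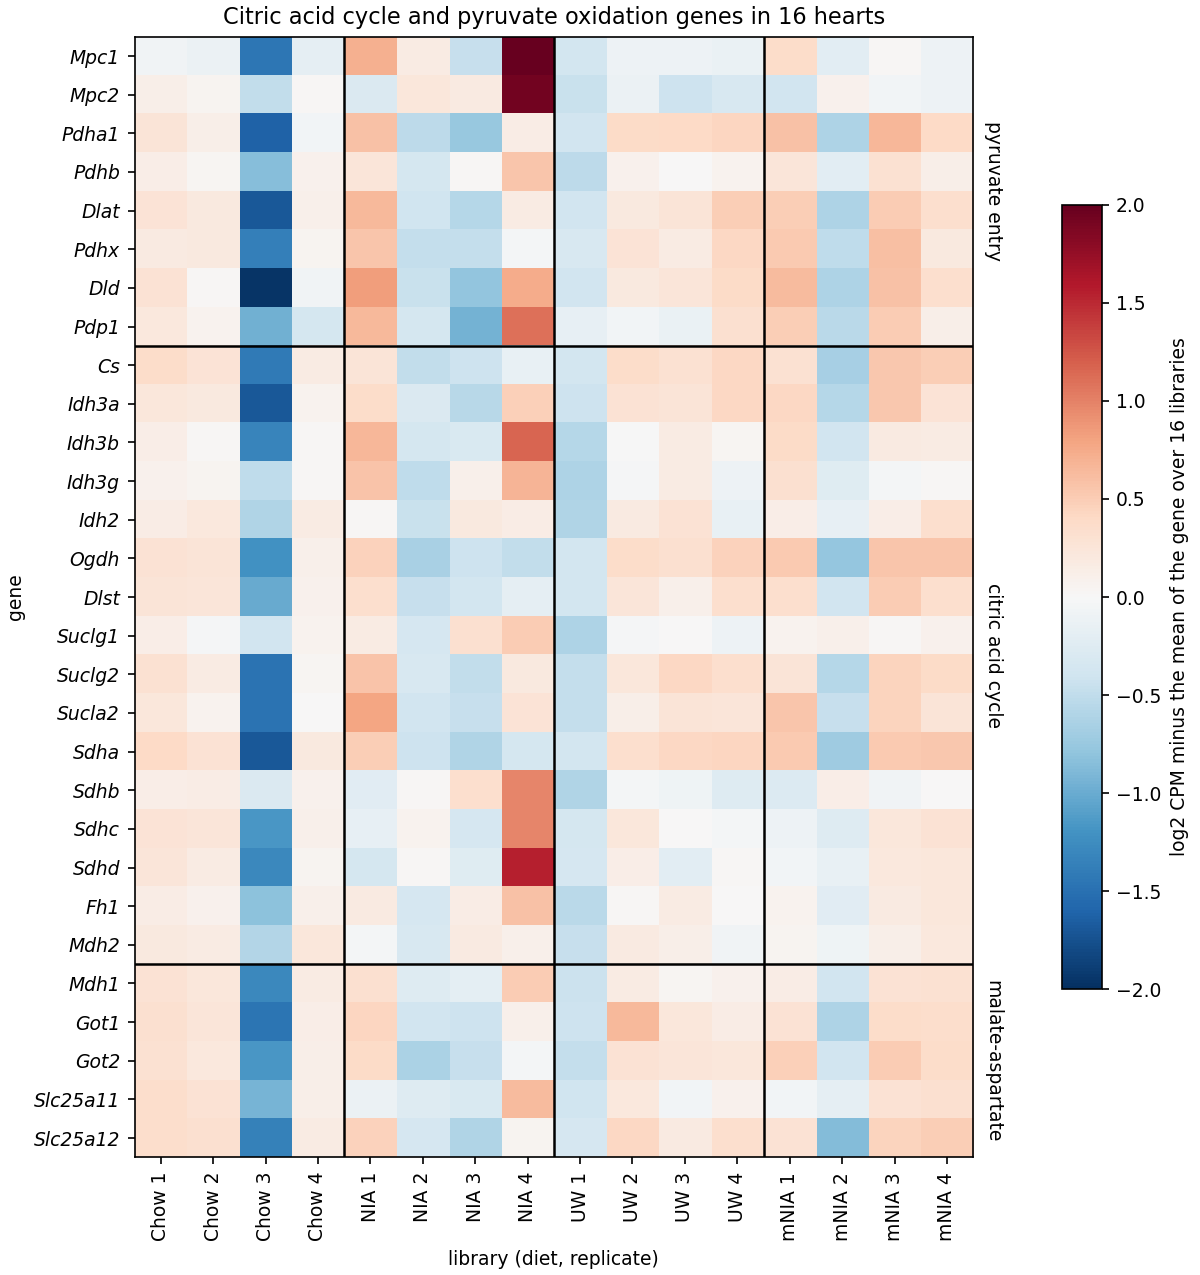
Each row is 1 of the 29 genes, each column 1 of the 16 libraries, and the colour is the deviation of log2 CPM from the gene mean over the 16 libraries, on a scale from -2 to 2. Chow 3, UW 1 and most of mNIA 2 form blue columns, most of NIA 2 and NIA 3 (levels -0.35 and -0.41) is blue as well, and Mpc1 and Mpc2 in NIA 4 are the darkest red cells.

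The low hearts were low across nearly the whole list. Chow 3 was the lowest of its diet for 29 of 29 genes, where it was the lowest for 39.4% of all tested genes. UW 1 was the lowest of its diet for 29 of 29 (36.1% of all genes) and mNIA 2 for 26 of 29 (36.4%). In NIA, NIA 2 and NIA 3 were the lowest for 13 genes each (13.8% and 21.2% of all genes) and NIA 1 for 3 (24.5%). The highest values in NIA were those of NIA 4 for 14 genes (30% of all genes) and NIA 1 for 13 (28.2%).

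How low they were differed. In Chow 3 the median ratio of a gene to the mean of the other 3 chow hearts was 0.385, from 0.243 for Dld to 0.756 for Sdhb. It was 0.641 in UW 1 (0.574 for Suclg2 to 0.894 for Mpc2) and 0.587 in mNIA 2 (0.401 for Ogdh to 1.202 for Mpc2). The ratios in NIA 2 and NIA 3 had medians of 0.677 and 0.683. Over all tested genes the medians of Chow 3, UW 1, mNIA 2, NIA 2 and NIA 3 were 1.03, 0.967, 1.00, 1.01 and 0.994.

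Markers of heart muscle and of other cells differed between the same libraries. The level of the 10 cardiomyocyte markers, computed in the same way, was -0.41 in Chow 3, -0.49 in UW 1, -0.31 in mNIA 2 and -0.44 in NIA 2, but 0.06 in NIA 3. That of the 8 endothelial markers was 0.73, 0.71, 0.65 and 0.22 in the first 4 and 0.36 in NIA 3, and it was -1.26 in NIA 4, where cardiomyocyte markers were at 0.85. Single cardiomyocyte markers did not all follow their median. Tnni3 (5703 and 6388 CPM) and Myl2 (11663 and 13272) were the highest of their diets in Chow 3 and mNIA 2. The other markers were each the lowest of their diet in Chow 3, and so were all but Myl3 and Mb in mNIA 2. Myh6, Ttn and Ryr2 were the lowest of the 16 libraries in NIA 4. Summed cardiomyocyte markers ran from 66857 to 98289 CPM in Chow, 60909 to 140995 on NIA, 62976 to 96145 on UW and 76800 to 119016 on mNIA, and summed endothelial markers from 1176 to 2040, 549 to 1484, 1058 to 1905 and 1026 to 1744 in the same order. The 5 erythrocyte genes had levels of 1.09 in Chow 3, 0.66 in mNIA 2 and 1.44 in NIA 2, but 0.24 in UW 1 and 0.26 in NIA 3. They were at 0.61 in Chow 4 and 0.46 in NIA 4, where the list was not low. UW 1 had the highest level of the 16 libraries for the 7 fibroblast (0.77) and the 7 macrophage markers (0.83), and Chow 3 for the 6 smooth muscle and pericyte markers (0.58). NIA 4 was lowest for fibroblast (-0.80) and smooth muscle and pericyte markers (-0.85). Summed levels did not follow the medians just given for NIA 4 and Chow 3. Smooth muscle and pericyte sums ran from 940 (NIA 2) to 1283 CPM (mNIA 2), with NIA 4 at 1246 and Chow 3 at 1071. The fibroblast sum of NIA 4 was 1236 CPM. Rgs5 (1040) and Dcn (908) were the highest of the 16 libraries in NIA 4, but Col1a1, Col1a2, Col3a1 and Pdgfrb the lowest. In Chow 3 Rgs5 (635) was the lowest, but Myh11 and Tagln the highest. The part of cell make-up in the level of the list was not tested.

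**Figure D2:**
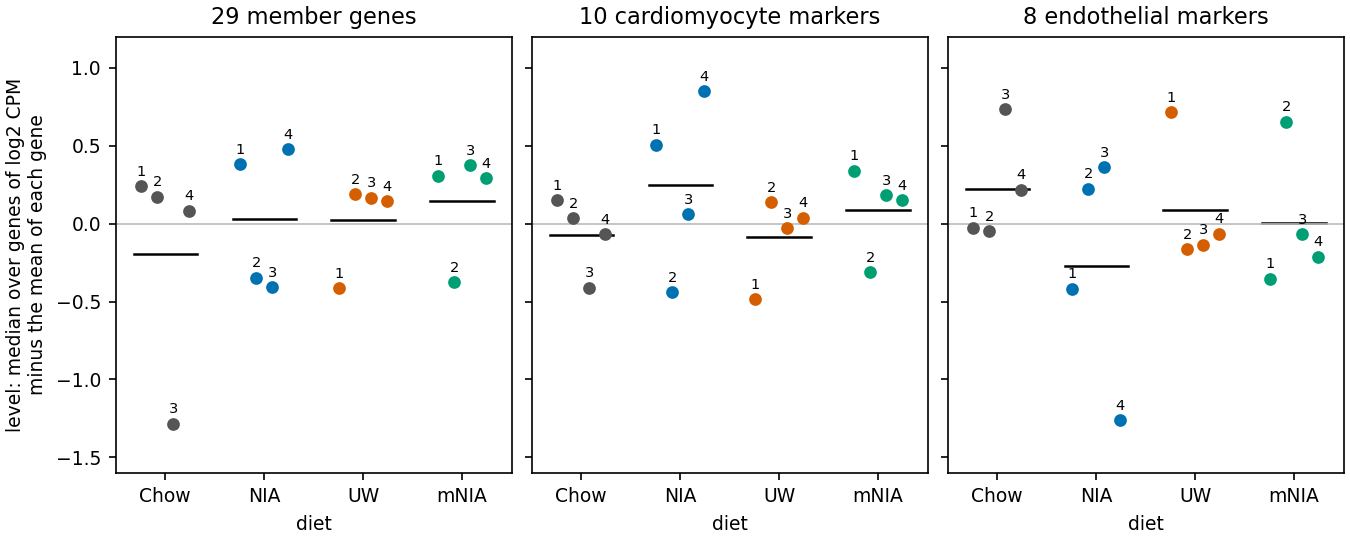
Each point is 1 library, numbered by replicate, and the bar is the mean of the 4 libraries of a diet. The 3 panels give the level (deviation of log2 CPM from the gene mean, median over genes) of the 29 genes, of 10 cardiomyocyte markers and of 8 endothelial markers. Chow 3 lies at -1.28 in the first panel, and Chow 3, UW 1 and mNIA 2 lie low in the first panel and high in the third.

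Among the genes of pyruvate entry, the dehydrogenase subunits were low in the hearts just named, while both carrier genes were highest in NIA 4. All levels below are TMM-scaled CPM for replicates 1 to 4 of a diet in order. Pdha1 (chromosome X, 160122219 to 160138431), the catalytic alpha subunit of pyruvate dehydrogenase whose phosphorylation switches the complex off, was at 1230, 1115, 336 and 996 on Chow, 1548, 720, 606 and 1138 on NIA, 793, 1339, 1350 and 1392 on UW, and 1537, 669, 1623 and 1357 on mNIA. Chow 3, NIA 3, UW 1 and mNIA 2 were the lowest of their diets, and the ranges of the 4 diets overlapped. Its log2 fold change was 0.50 ± 0.40 for mNIA minus Chow (SE, edgeR adjusted p = 0.983) and 0.34 ± 0.33 for the mean of the 3 primate diets minus Chow (adjusted p = 0.938), and without Chow 3 these were 0.22 and 0.07.

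Dld (chromosome 12, 31331562 to 31351472) encodes the dihydrolipoamide dehydrogenase that the pyruvate and 2-oxoglutarate dehydrogenase complexes share, and had the largest spread of the 29. Its levels were 562, 469, 119 and 439 CPM on Chow, 827, 340, 268 and 775 on NIA, 356, 526, 545 and 605 on UW, and 718, 301, 695 and 582 on mNIA. In Chow the highest heart was 4.73 times the lowest, and in NIA the hearts fell into 2 high and 2 low. The log2 fold change of mNIA minus Chow was 0.53 ± 0.44 (edgeR adjusted p = 0.983), and that of the 3 primate diets minus Chow was 0.45 ± 0.36 (adjusted p = 0.938); without Chow 3 they were 0.23 and 0.15.

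Mpc1 (chromosome 17, 8283787 to 8297668), 1 of the 2 subunits of the pyruvate carrier, was at 417, 403, 160 and 386 CPM on Chow, 716, 491, 319 and 1767 on NIA, 338, 406, 405 and 400 on UW, and 567, 378, 445 and 406 on mNIA. NIA 4 stood far above all other hearts, while the UW hearts lay within 1.203 times of each other. Its log2 fold change of NIA minus Chow was 1.27 ± 0.42 (unadjusted p = 0.00699, edgeR adjusted p = 0.419), and without NIA 4 it was 0.56 ± 0.32. For the 3 primate diets minus Chow it was 0.61 ± 0.35 (edgeR adjusted p = 0.938), and 0.38 without either Chow 3 or NIA 4. Reads of Mpc1 may be shared with near-identical copies, annotated as Mpc1-ps and Gm8219.

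Mpc2 (chromosome 1, 165461208 to 165481215), the partner subunit, was at 334, 321, 219 and 315 CPM on Chow, 252, 360, 348 and 1180 on NIA, 227, 285, 230 and 247 on UW, and 237, 329, 297 and 288 on mNIA. NIA 4 was 3.69 times the mean of the other 3 NIA hearts, and NIA 1, the other NIA heart of high list level, was the lowest of its diet. The log2 fold change of UW minus NIA was -1.11 ± 0.37 (unadjusted p = 0.00737, edgeR adjusted p = 0.205), against -0.35 ± 0.21 without NIA 4. For the 3 primate diets minus Chow it was 0.18 ± 0.30 (edgeR adjusted p = 0.945), -0.071 without NIA 4 and 0.056 without Chow 3.

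The other pyruvate genes were low in the same chow and UW hearts. Pdhb (the beta subunit), Dlat (the acetyltransferase core), Pdhx (which anchors Dld to that core) and Pdp1 (the phosphatase that switches the complex on) were lowest in Chow 3 and UW 1 within those diets, at ratios of 0.271 (Dlat) to 0.525 (Pdhb) in Chow 3. Pdp1 was the least abundant of the 29 at 40.5 ± 13.3 CPM in Chow, and NIA 4 was 2.26 times the other NIA hearts for it. Pdhb has a near-identical copy, annotated as Gm6123, with which reads may be shared.

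Among the cycle enzymes, citrate synthase and the large dehydrogenase subunits were lowest in the same hearts as the whole list in Chow, UW and mNIA. Cs (chromosome 10, 128337727 to 128362483), citrate synthase, which starts the cycle, was at 1501, 1402, 437 and 1298 CPM on Chow, 1392, 823, 877 and 1055 on NIA, 906, 1502, 1443 and 1553 on UW, and 1439, 736, 1690 and 1630 on mNIA. Chow 3, UW 1 and mNIA 2 were the low hearts, and in NIA only NIA 1 lay within the range of the higher chow and UW hearts. The log2 fold change of mNIA minus NIA was 0.41 ± 0.36 (edgeR adjusted p = 0.781), and that of the 3 primate diets minus Chow was 0.10 ± 0.30 (adjusted p = 0.970), which was -0.17 without Chow 3.

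Ogdh (chromosome 11, 6291597 to 6359095), the E1 enzyme of the 2-oxoglutarate dehydrogenase complex and holder of 2 of the promoter matches shown above, was at 2697, 2633, 951 and 2371 CPM on Chow, 3020, 1408, 1653 and 1568 on NIA, 1699, 2832, 2730 and 3010 on UW, and 3170, 1288, 3238 and 3231 on mNIA. In mNIA 3 hearts lay within 3170 to 3238 and mNIA 2 far below them. NIA 4, high for most of the list, was at 0.773 times the other NIA hearts here. Its log2 fold change was 0.51 ± 0.38 for mNIA minus NIA (edgeR adjusted p = 0.720) and 0.14 ± 0.31 for the 3 primate diets minus Chow (adjusted p = 0.961; -0.11 without Chow 3).

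Idh3a, Idh3b and Idh3g encode the subunits of the NAD-dependent isocitrate dehydrogenase, a control point of the cycle. Idh3a (chromosome 9, 54586511 to 54604663), the catalytic subunit, was at 598, 587, 159 and 541 CPM on Chow, 658, 419, 349 and 715 on NIA, 383, 628, 616 and 680 on UW, and 684, 345, 742 and 620 on mNIA. Idh3b (chromosome 2, 130279309 to 130284452) was at 738, 686, 272 and 688 on Chow, 1073, 531, 547 and 1518 on NIA, 454, 674, 759 and 692 on UW, and 877, 520, 765 and 757 on mNIA. Idh3g (chromosome X, 73778963 to 73786898) was at 521, 515, 348 and 502 on Chow, 733, 347, 530 and 793 on NIA, 320, 484, 555 and 462 on UW, and 616, 419, 482 and 499 on mNIA. All 3 subunits were lowest in Chow 3, UW 1 and mNIA 2 within those diets, and highest in NIA 4 within NIA.

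None of the 3 differed between diets by the test. The log2 fold change of Idh3a was 0.34 ± 0.37 for mNIA minus Chow and 0.27 ± 0.31 for the 3 primate diets minus Chow (edgeR adjusted p = 0.983 and 0.938), and 0.056 and -0.016 without Chow 3. For Idh3b it was 0.62 ± 0.36 for NIA minus Chow (edgeR adjusted p = 0.639; 0.26 without NIA 4) and 0.34 ± 0.30 for the 3 primate diets (adjusted p = 0.938). Without Chow 3 these values of Idh3b were 0.38 and 0.10. For Idh3g it was -0.40 ± 0.28 for UW minus NIA (edgeR adjusted p = 0.552) and 0.13 ± 0.23 for the 3 primate diets (adjusted p = 0.948). The first of these was -0.22 without NIA 4 and -0.26 without UW 1, and the second 0.010 without Chow 3 and 0.076 without NIA 4.

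The 4 subunits of succinate dehydrogenase, which is also complex II of the respiratory chain, did not move as a unit. Sdha (chromosome 13, 74322255 to 74350241), the flavoprotein, was at 1601, 1488, 374 and 1388 CPM on Chow, 1713, 915, 802 and 954 on NIA, 947, 1533, 1627 and 1635 on UW, and 1752, 743, 1754 and 1771 on mNIA. Sdhb (chromosome 4, 140961271 to 140979199), the iron-sulphur subunit, was at 863, 874, 648 and 834 on Chow, 674, 800, 993 and 1544 on NIA, 521, 765, 739 and 662 on UW, and 652, 866, 750 and 790 on mNIA. Sdhd (chromosome 9, 50596340 to 50603850), a membrane anchor and the holder of the longer receptor motif, was at 427, 405, 148 and 377 on Chow, 283, 368, 305 and 1067 on NIA, 285, 394, 314 and 366 on UW, and 347, 327, 419 and 422 on mNIA. NIA 4 was at 0.834 times the other NIA hearts for Sdha, but at 1.88, 2.15 and 3.35 times for Sdhb, Sdhc and Sdhd. In mNIA 2 the ratio was 0.422 for Sdha and 1.19 for Sdhb.

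For Sdha the log2 fold change was 0.46 ± 0.40 for mNIA minus NIA and 0.14 ± 0.33 for the 3 primate diets minus Chow (edgeR adjusted p = 0.780 and 0.961), the latter -0.16 without Chow 3. For Sdhb it was -0.58 ± 0.27 for UW minus NIA (unadjusted p = 0.0439, edgeR adjusted p = 0.344), and -0.27 ± 0.22 without NIA 4. Its value for the 3 primate diets minus Chow was -0.0059 ± 0.22 (edgeR adjusted p = 0.997). For Sdhd it was 0.57 ± 0.39 for NIA minus Chow (edgeR adjusted p = 0.703), -0.10 ± 0.30 without NIA 4 and 0.32 without Chow 3. For the 3 primate diets minus Chow Sdhd was at 0.24 ± 0.32 (edgeR adjusted p = 0.938), -0.0044 without Chow 3 and 0.015 without NIA 4.

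Suclg1 and Mdh2 were among the steadiest of the 29. Suclg1 (chromosome 6, 73248505 to 73276908), the alpha subunit of succinyl-CoA ligase, which forms succinate and a nucleoside triphosphate, was at 467, 423, 328 and 451 CPM on Chow, 479, 339, 534 and 612 on NIA, 281, 419, 432 and 397 on UW, and 451, 461, 435 and 454 on mNIA. Mdh2 (chromosome 5, 135778649 to 135790387), the mitochondrial malate dehydrogenase that closes the cycle, was at 1314, 1293, 764 and 1350 on Chow, 1122, 917, 1303 and 1238 on NIA, 831, 1307, 1238 and 1088 on UW, and 1195, 1077, 1250 and 1328 on mNIA. All 4 mNIA hearts lay above all UW hearts for Suclg1, as for 0.77% of all genes, a share that counts this direction only. It was the only one of the 29 genes for which any 2 compared diets did not overlap. In the other comparisons no gene of the list was free of overlap in either direction. The shares of all genes in either direction were 3.23% in NIA minus Chow, 4.45% in UW minus Chow and 2.16% in mNIA minus Chow. They were 6.35% in UW minus NIA, 2.35% in mNIA minus NIA and 0.0897% in the 3 primate diets minus Chow. Fold changes of Suclg1 on the log2 scale were 0.24 (95% confidence interval -0.25 to 0.72; edgeR adjusted p = 1.00) for mNIA minus UW, -0.36 ± 0.23 for UW minus NIA (edgeR adjusted p = 0.515) and 0.073 ± 0.19 for the 3 primate diets minus Chow (adjusted p = 0.965). Without UW 1 the value of mNIA minus UW was 0.11. That of UW minus NIA was -0.22 without NIA 4 and -0.24 without UW 1, and that of the 3 primate diets -0.027 without Chow 3. For Mdh2 it was 0.12 ± 0.25 for mNIA minus UW (edgeR adjusted p = 1.00) and -0.029 ± 0.21 for the 3 primate diets (adjusted p = 0.990). The former was 0.0013 without UW 1, and the latter -0.19 without Chow 3.

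The remaining cycle genes were Idh2 (the NADP-dependent isocitrate dehydrogenase), Dlst (the succinyltransferase core partnered with Ogdh), Suclg2 and Sucla2 (the GTP- and ATP-forming partners of Suclg1), Sdhc (a membrane anchor) and Fh1 (fumarase). Each was lowest in Chow 3 and UW 1 within those diets. In Chow 3 their ratios ran from 0.320 for Suclg2 to 0.588 for Idh2. Suclg2 has a near-identical copy, annotated as Gm15163, with which reads may be shared.

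In the malate-aspartate shuttle, Got2 (chromosome 8, 95864137 to 95888366), the mitochondrial aspartate aminotransferase, was at 854, 799, 307 and 744 CPM on Chow, 898, 446, 502 and 671 on NIA, 497, 842, 819 and 806 on UW, and 961, 527, 985 and 886 on mNIA. Chow 3, NIA 2, UW 1 and mNIA 2 were the low hearts, and the diets overlapped. The log2 fold change was 0.42 ± 0.33 for mNIA minus NIA (edgeR adjusted p = 0.746) and 0.11 ± 0.27 for the 3 primate diets minus Chow (adjusted p = 0.961; -0.13 without Chow 3). The cytosolic enzymes Mdh1 and Got1 and the carriers Slc25a11 (malate for 2-oxoglutarate) and Slc25a12 (aspartate for glutamate) were at 0.308 (Got1) to 0.442 (Slc25a11) times the other chow hearts in Chow 3. Got2 has a near-identical copy, annotated as Got2-ps1.

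**Figure D3:**
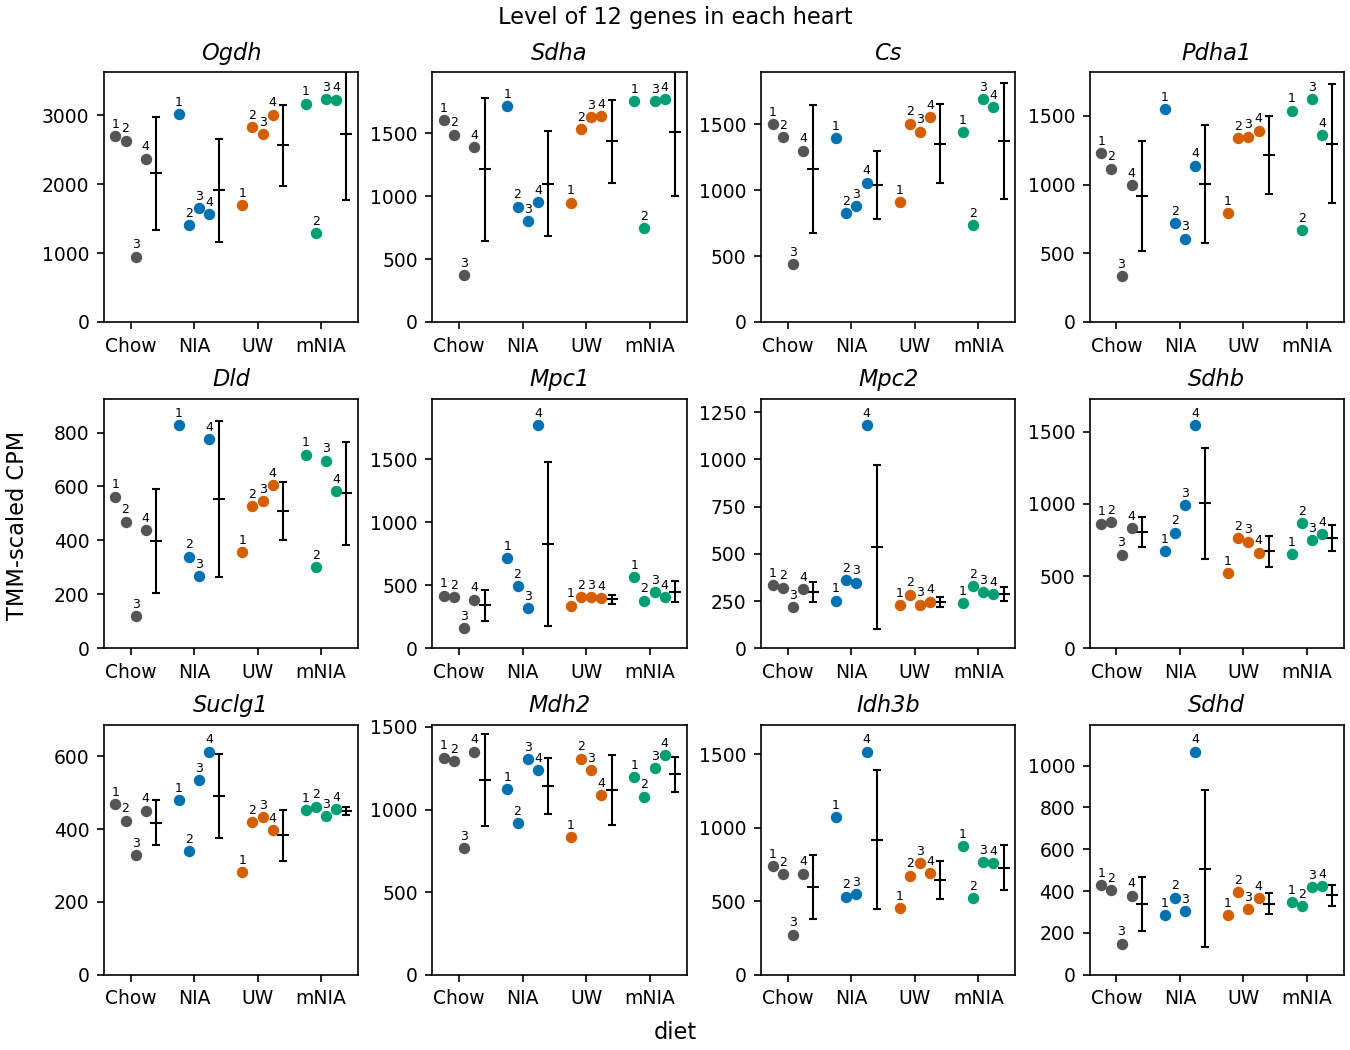
Each panel is 1 of 12 genes, each point the TMM-scaled CPM of 1 heart, numbered by replicate, and the bar at the side of each diet is mean ± SD (n = 4). Ogdh, Sdha, Cs, Pdha1 and Dld lie low in Chow 3, UW 1 and mNIA 2, Mpc1, Mpc2 and Sdhd peak in NIA 4, and Suclg1 spans 435 to 461 CPM in mNIA.

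Levels of different genes can be compared only per length. In Chow, per kilobase of annotated exon, Idh2 was highest at 812 ± 187 CPM (SD, n = 4), followed by Mdh1 at 700 ± 273 and Ogdh at 396 ± 150. Pdp1 was lowest at 8.98 ± 2.94, below Slc25a12 at 24.4 ± 10.05 and Pdhx at 28.0 ± 10.9. Idh2 and Mdh1 were also the first 2 in UW, at 787 ± 202 and 707 ± 122. The order between Idh2 and Mdh1, and among Pdhx, Suclg2 and Mpc2 in Chow, does not exceed the spread between hearts. Exon length is that of all annotated exons together, so a gene with long exons that few transcripts use is given too low a level. The summed exons of Mpc2, at 7344 bases, are among the longest of the 29.

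Spread within diets, the SD of log2 CPM pooled over the 4 diets, had a median of 0.56 over the 29 genes against 0.42 over all tested genes, and 21 of the 29 lay above that all-gene median. The widest were Dld (0.74), Sdha (0.66) and Pdha1 (0.64), and the narrowest Suclg1 (0.26), Mdh2 (0.28) and Sdhb (0.32). By diet the median SD of the 29 was 0.69 on Chow, 0.49 on NIA, 0.33 on UW and 0.39 on mNIA, against 0.32, 0.55, 0.26 and 0.33 over all genes. The pooled excess over all genes was lost without Chow 3: the median over the 29 was then 0.40, a ratio of 0.999 to all genes, against 1.32 with it. The UW and mNIA medians, which do not hold that heart, were also above those of all genes, and the NIA median was below. Suclg1 in mNIA, with an SD of 0.035, was the tightest value of any of the 29 genes in any diet.

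Transcript length went with the pattern in some hearts. Across the 29 genes, the ratio of a heart to the other 3 of its diet was lower for longer exons in NIA 4 (Spearman rho -0.48) and mNIA 2 (-0.48) and higher for longer exons in NIA 1 (0.48), UW 4 (0.57) and mNIA 3 (0.53). Over 13260 genes the values were -0.40, -0.26, 0.39, 0.31 and 0.11 in the same order. In Chow 3 and UW 1 they were -0.23 and -0.33 across the 29 genes, and -0.048 and -0.025 over all genes. Each of these ratios has the other hearts of its diet in the denominator. Taken instead against the median of each gene over the 16 libraries, rho across the 29 genes was 0.089 in NIA 1. It was -0.49, -0.42 and -0.54 in NIA 2, NIA 3 and NIA 4, and -0.50 in mNIA 2. By that measure Chow 3, Chow 4 and UW 1 were at -0.27, -0.45 and -0.18, and UW 4 and mNIA 3 both at 0.46. Genes of 1 library share its depth and RNA, so these are descriptions with no p-value. The part of length in the values of single genes was not tested. Mpc2 departed from this in NIA 4, with long annotated exons and the highest ratio.

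**Figure D4:**
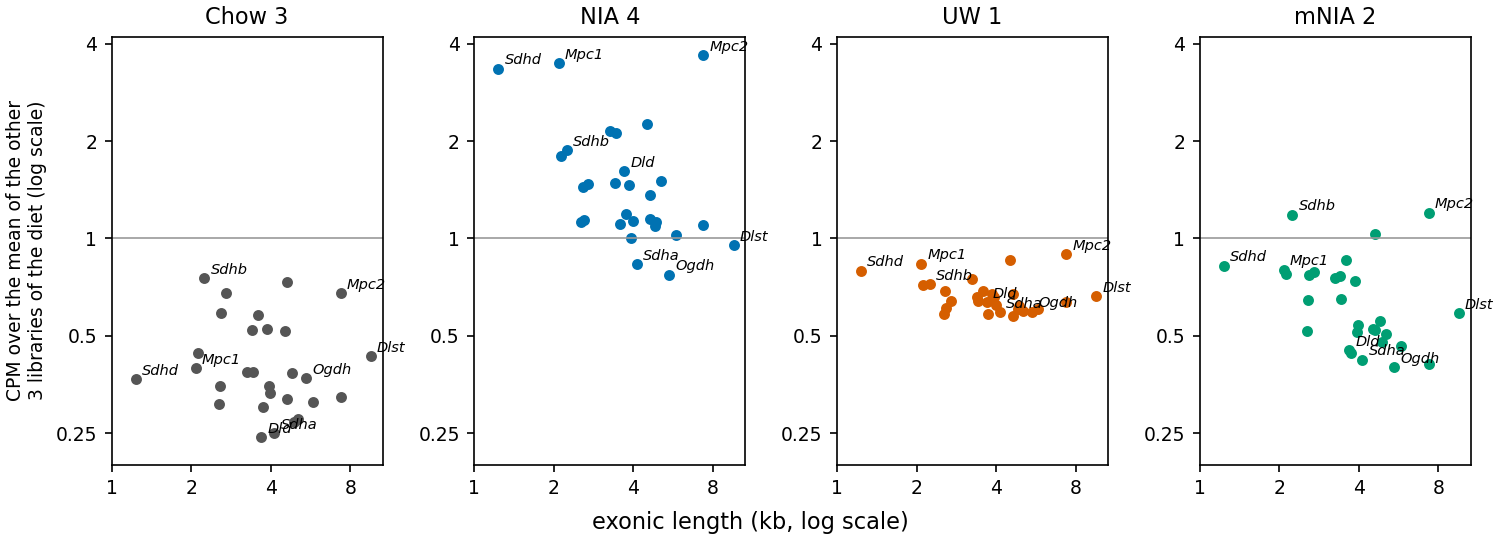
Each point is 1 of the 29 genes, the horizontal axis is exon length in kilobases and the vertical axis the ratio of the named library to the mean of the other 3 of its diet, both on log scales. In Chow 3 and UW 1 every gene lies below 1, and in NIA 4 Sdhd, Mpc1 and Mpc2 lie at 3.35, 3.47 and 3.69 while Ogdh lies at 0.773.

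Diets were then compared in 1 model over the 16 hearts, with p-values adjusted over all 13381 genes. Compared with chow, most of the 29 genes had higher means on each primate diet, but by small amounts, and none passed the test. In NIA minus Chow, 21 of 29 were higher (48.6% of all genes), with a median log2 fold change of 0.16 from -0.18 (Ogdh) to 1.27 (Mpc1). In UW minus Chow 22 were higher (49.2%), with a median of 0.13 from -0.27 (Mpc2) to 0.41 (Pdha1). In mNIA minus Chow 27 were higher (51%), with a median of 0.24 from -0.074 (Sdhb) to 0.53 (Dld). The median over all genes was -0.013, -0.0061 and 0.0059 in the same order. These comparisons share the chow hearts, so they are not independent of each other.

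That direction rested on Chow 3. Without it, 13 of 29 were higher in NIA minus Chow (54.4% of all genes), 6 in UW minus Chow (54.2%) and 16 in mNIA minus Chow (56.4%), with medians of -0.11, -0.11 and 0.011. For the mean of the 3 primate diets minus Chow, a comparison that does not depend on which primate diet is which, 27 of 29 were higher (50.4% of all genes; median 0.14), and 8 of 29 without Chow 3 (56.3%; median -0.039). By role, 8 of 8 pyruvate genes (median 0.30), 14 of 16 cycle genes (0.13) and 5 of 5 shuttle genes (0.11) were higher in that comparison with all hearts. The 95% confidence intervals with all hearts were wide, as for Cs (-0.52 to 0.72), Ogdh (-0.52 to 0.79) and Pdha1 (-0.35 to 1.04), so differences of this size in either direction are not excluded by them.

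**Figure D5:**
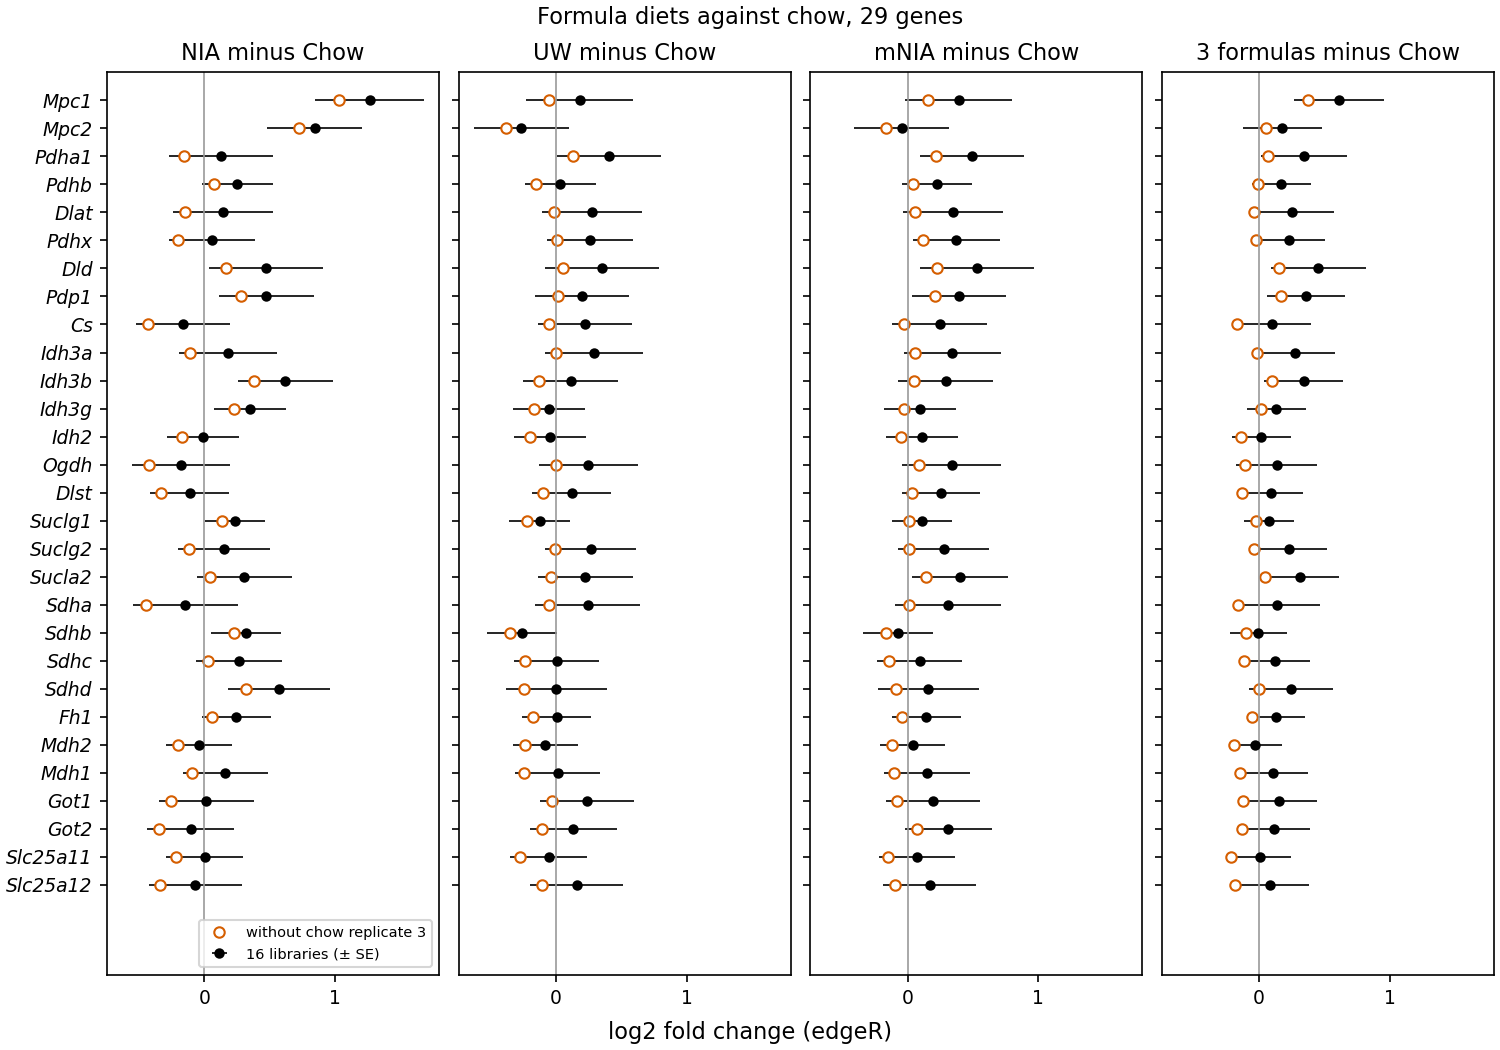
Each row is 1 of the 29 genes and each panel 1 comparison with chow; filled points are log2 fold changes with their SE from all 16 libraries, and open points are those without Chow 3. The open points lie to the left of the filled ones, and Mpc1 and Mpc2 in NIA minus Chow stand apart at 1.27 and 0.84.

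Between the primate diets, 12 of 29 were higher in UW minus NIA (49.7% of all genes; median -0.058), and 20 without NIA 4 (51%; median 0.12). In mNIA minus NIA 17 were higher (49.1%; median 0.083), with Mpc2 lowest at -0.89 and Ogdh highest at 0.51, and without NIA 4 the count was 24 (47.6%; median 0.21). Without NIA 2 it was 12, and without NIA 3 it was 13, with medians just below 0. In mNIA minus UW 28 of 29 were higher (54.5%; median 0.14), Got1 being the exception at -0.047, and 18 without UW 1 (52.9%; median 0.011).

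No gene of the list passed an adjusted p of 0.05 in any of the 6 pairs of diets, in the mean of 3 primate diets minus Chow, or in the joint test of any diet difference, in edgeR or in DESeq2. Over all genes edgeR called 0% in each but mNIA minus Chow, where 1 gene of 13381 passed (0.00747%). That gene, Phtf1os, is not in the list and was singled out after its values were seen. At an unadjusted p under 0.05 there were 2 of the 29 in NIA minus Chow (Mpc1 and Mpc2; 8.7% of all genes), 3 in UW minus NIA (Mpc1, Mpc2 and Sdhb; 13.9%), 2 in mNIA minus NIA (Mpc1 and Mpc2; 8.91%) and 2 in the joint test (Mpc1 and Mpc2; 6.88%), shares close to those of all genes. In UW minus Chow, mNIA minus Chow, mNIA minus UW and the mean of 3 there were 0 (2.35%, 1.38%, 0.986% and 2.19% of all genes).

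Calls appeared where libraries were dropped or given less weight. The limma-voom fit with quality weights called 8 of the 29 in mNIA minus NIA (Cs, Dlst, Got2, Ogdh, Pdha1, Pdhx, Pdp1 and Sdha; 15% of all genes) and 3 in the joint test (Got2, Ogdh and Pdha1; 15%). In that fit the log2 fold changes of mNIA minus NIA were 0.74 for Cs, 0.89 for Ogdh, 0.82 for Sdha and 0.81 for Got2. Without the 4 libraries of low quality weight, edgeR called 16 in mNIA minus NIA (23.1% of all genes), 11 in UW minus NIA (11.8%) and 10 in the joint test (9.97%). There the values of mNIA minus NIA were 0.89 for Cs (edgeR adjusted p = 0.00722), 1.07 for Ogdh (0.00382), 1.03 for Sdha (0.00396) and 0.99 for Got2 (0.00396), and Mpc2 was called in UW minus NIA at -0.50 (0.0420). That fit leaves NIA with only NIA 2 and NIA 3, the 2 NIA hearts in which the list is low, and drops the low hearts of Chow and mNIA. The weights come from the same counts and fall where a heart lies far from its diet.

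Of 34 other genes of the pathway and its neighbours that are not in the list, all 34 were tested and 0 passed in any comparison. For the 3 primate diets minus Chow, 25 of the 34 had higher means (50.4% of all genes; median log2 fold change 0.14). Their level was -0.60 in Chow 3 against -0.052 to 0.19 in the other chow hearts, and without Chow 3 the count was 14 of 34 (56.3% of all genes; median -0.032). Pdk4, a kinase that switches pyruvate dehydrogenase off when fat is the fuel, was at 322, 351, 70.9 and 202 CPM on Chow, 1156, 308, 185 and 530 on NIA, 357, 231, 2441 and 675 on UW, and 947, 224, 663 and 421 on mNIA. Its log2 fold change for the 3 primate diets minus Chow was 1.48 ± 0.62 (unadjusted p = 0.0275, edgeR adjusted p = 0.938), with Chow 3 the lowest and UW 3 the highest of the 16 hearts.

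The other genes of smallest joint p were Ogdhl, a paralogue of Ogdh, Pcx, the pyruvate carboxylase that refills the cycle, and Aco1, the cytosolic aconitase. Ogdhl was at 266, 276, 212 and 274 CPM on Chow, 846, 186, 262 and 938 on NIA, 175, 263, 316 and 242 on UW, and 461, 242, 278 and 281 on mNIA, with NIA 1 and NIA 4 apart from the rest. Its joint p was 0.0280 (edgeR adjusted p = 0.659). Pcx averaged 33.1 ± 10.6 CPM on Chow and 19.5 ± 4.1 on NIA, with a log2 fold change of NIA minus Chow of -0.76 ± 0.27 (edgeR adjusted p = 0.459). Aco1 was at 26.7 ± 6.3 CPM in NIA and 40.3 ± 10.05 in mNIA, with a log2 fold change of mNIA minus NIA of 0.59 ± 0.24 (edgeR adjusted p = 0.549).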

How the data were processed

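RNA from the ventricles of 16 mice was made into strand-specific, poly-A selected libraries and read as 75-base single reads, from RNA with an integrity number above 7.0, per the labels' protocols. The authors deposited expected counts per gene, unscaled, with positions on mm10; BWA and DESeq2 are named in the submitters' processing notes without versions, and the counting tool and its use of strand are not given in the sources used here. Of the 29 genes, 10 overlap a gene on the other strand, 4 a gene on the same strand, and 4 have near-identical copies (95% identity over at least 75 bases, blastn 2.17.0). None of those copies has an entry in the deposited counts, so reads shared with them could not be checked.

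Values were rounded to whole counts. Genes were filtered by filterByExpr (13381 of 17737 kept), scaled by TMM and fitted with edgeR 4.0.16 (quasi-likelihood, robust) under R 4.3.3, with 1 mean per diet over 16 libraries, 2-sided tests and Benjamini-Hochberg adjustment over all tested genes at 0.05. Log2 CPM used a prior count of 2, and limma 3.58.1 and DESeq2 1.42.0 served as alternatives. Exon lengths came from GENCODE vM21 and promoters from RefSeq. Each library is 1 animal, and no batch is labelled.

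The 29 genes, the gene lists and the tests were chosen with earlier results of these data known, including that citric acid cycle genes part libraries within diets, so that pattern is no independent support. Values in every heart are given for 8 fixed genes, the 6 others of smallest joint p, and the 3 of largest and 3 of smallest spread, with fold changes for the pair of smallest p and for the 3 primate diets minus Chow. Alternatives were RLE scaling, DESeq2, limma-voom with quality weights, no filter, the replicate number as a block, 2 diets alone, each library left out, and 4 libraries of low weight left out together. Leaving out each library for the other pathway genes was added after seeing the data.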

Additional observations from a re-analysis of the deposited data

Results flagged for a closer look

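In groups of 4 hearts, a heart was singled out where its gap to the nearest other heart took up more of the range of the diet than Dixon's 95% critical value for 4 samples allows. Of 132 groups examined (29 genes and 4 list levels in 4 diets), 34 held such a heart, where chance gives about 1 in 20. By gene alone the share was 22.4% of 116 groups, against 8.84% over all tested genes by the same measure; by diet it was 41.4% against 12.2% on Chow, 17.2% against 8.81% on NIA, 20.7% against 6.24% on UW and 10.3% against 8.13% on mNIA. The genes of a heart are not independent, so the count describes a few hearts rather than 34 separate events.

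Chow 3 held 16 of them, all low. The level of the 29 genes was -1.28 there (other chow hearts 0.08 to 0.24), that of pyruvate genes -1.40, of cycle genes -1.19 and of shuttle genes -1.29. In CPM, Chow 3 stood at 160 for Mpc1 and 219 for Mpc2, the carrier subunits, and at 328 for Pdhb, 119 for Dlat and 46.1 for Pdhx, of the dehydrogenase complex. It stood at 159 for Idh3a, 272 for Idh3b, 348 for Idh3g and 1378 for Idh2, the isocitrate dehydrogenases, at 226 for Fh1 and 764 for Mdh2, and at 753 for Mdh1 of the shuttle.

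UW 1 held 7, all low: the level of the 29 genes (-0.41, others 0.14 to 0.19), Mpc1 (338 CPM), Pdha1 (793), Pdhb (412), Cs (906), Sdha (947) and Got2 (497). mNIA 2 held 6, all low: the level of the 29 genes (-0.38, others 0.29 to 0.37), of cycle genes (-0.31) and of shuttle genes (-0.39), and Ogdh (1288 CPM), Sdha (743) and Got1 (434).

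In NIA the singled-out hearts were high. NIA 4 stood at 1180 CPM for Mpc2 (others 252 to 360), 1067 for Sdhd (others 283 to 368) and 667 for Slc25a11 (others 352 to 397). NIA 1 stood at 3020 for Ogdh (others 1408 to 1653) and 1713 for Sdha (others 802 to 954).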

How the results depend on the processing

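No gene of the list passed in any comparison under RLE scaling, DESeq2, no filter, the replicate block, 2 diets alone or any 1 library left out. Under limma-voom 8 passed in mNIA minus NIA and 3 in the joint test, and without the 4 libraries of low weight 16, 11 (UW minus NIA) and 10 (joint test).

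The count of higher means under limma-voom was 3 in NIA minus Chow (median -0.35), 24 in UW minus NIA, 26 in mNIA minus NIA and 7 in the 3 primate diets minus Chow. Without the 4 libraries it was 2 (median -0.55), 25 (median 0.51), 27 (median 0.73) and 1, and 4 in UW minus Chow. Leaving out 1 library, it ran from 13 to 26 in NIA minus Chow, 6 to 26 in UW minus Chow, 16 to 28 in mNIA minus Chow, 8 to 29 in the 3 primate diets minus Chow (each lowest without Chow 3), 11 to 20 in UW minus NIA (highest without NIA 4), 12 to 24 in mNIA minus NIA (lowest without NIA 2, highest without NIA 4; median -0.025 to 0.21) and 18 to 29 in mNIA minus UW (lowest without UW 1). The spread of the 29 genes over that of all genes ran from 0.999 (without Chow 3) to 1.44.

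Over all genes, DESeq2 called 114 in NIA minus Chow, 1 in UW minus Chow, 327 in UW minus NIA, 1 in mNIA minus UW, 174 in the joint test and 0 in mNIA minus Chow. limma-voom called 31, 2, 954, 1 and 2007 in the first 5 of these, 2001 in mNIA minus NIA and 4 in the 3 primate diets minus Chow. Without the 4 libraries there were 224 in NIA minus Chow, 1 in UW minus Chow, 1627 in UW minus NIA, 3184 in mNIA minus NIA, 1374 in the joint test and 0 in mNIA minus Chow. The 1 gene of mNIA minus Chow was lost with the replicate block (0), with 2 diets alone (0) and without most single libraries (0 to 1). Leaving out 1 library gave 0 to 116 in NIA minus Chow, 0 to 217 in UW minus NIA and 0 to 110 in the joint test, the highest each time without NIA 2, and 0 to 1 in mNIA minus UW.

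Of 30 fold changes of named genes, some passed the threshold and some changed sign. Those that passed were the mNIA minus NIA values of Cs, Ogdh, Sdha and Got2 under limma-voom (0.74, 0.89, 0.82 and 0.81) and without the 4 libraries (0.89, 1.07, 1.03 and 0.99), and Mpc2 in UW minus NIA without the 4 (-0.50). For the 3 primate diets minus Chow, Sdhb was 0.013 under RLE scaling and DESeq2. Under limma-voom Cs was -0.11, Got2 -0.12, Idh3g -0.071, Mpc2 -0.11, Ogdh -0.074, Sdha -0.10, Sdhd -0.0909 and Suclg1 -0.052, with Idh3b -0.14 and Sdhd -0.12 in NIA minus Chow and Idh3g 0.048 in UW minus NIA. Without the 4 libraries Cs was -0.21, Dld -0.082, Got2 -0.22, Idh3a -0.13, Idh3b -0.13, Idh3g -0.13, Mpc2 -0.18, Ogdh -0.16, Pdha1 -0.0782, Sdha -0.22, Sdhd -0.19 and Suclg1 -0.10, with Idh3b -0.41, Mpc1 -0.0099 and Sdhd -0.28 in NIA minus Chow and Idh3g 0.076 in UW minus NIA. With 1 library left out, the 3 primate diets minus Chow ran from -0.19 to 0.043 for Mdh2, -0.10 to 0.050 for Sdhb, -0.17 to 0.25 for Cs, -0.016 to 0.41 for Idh3a, -0.11 to 0.26 for Ogdh, -0.16 to 0.30 for Sdha, -0.13 to 0.25 for Got2, -0.0044 to 0.37 for Sdhd, -0.027 to 0.13 for Suclg1 and -0.071 to 0.27 for Mpc2, and NIA minus Chow from -0.10 to 0.84 for Sdhd. The cause was not tested. Removing or down-weighting hearts far from their diet narrows the spread by construction.

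Hearts of the same replicate number in the titles were not alike as a rule. Over 24 pairs of the same number, correlations of deviations from the diet mean ran from -0.58 to 0.61, and 9 were over 0.1. Of 16 hearts, 4 correlated best with their own number. With the title number as a block, 0 of the 29 passed, so no call of the list changed. The library codes number the mNIA hearts otherwise, and a pairing by those numbers was not tested.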

Other observations

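Subunits of the same complex had unlike values in the same heart. In NIA 1 the ratio to the other NIA hearts was 1.92 for Sdha and 0.606, 0.707 and 0.488 for Sdhb, Sdhc and Sdhd. In NIA 4 the sides were exchanged, though each of these ratios has the other heart in its denominator. The pyruvate carrier parted too: in NIA 1 Mpc1 was at 0.834 and Mpc2 at 0.401 times the other NIA hearts, which include the high NIA 4. In Chow 3 Dld, Dlat, Pdha1, Pdhx and Pdhb of the pyruvate dehydrogenase complex were at 0.243, 0.271, 0.302, 0.351 and 0.525. Sdha, Sdhd and Sdhc were at 0.251, 0.368 and 0.387 there, but Sdhb at 0.756. Suclg2 and Sucla2 were at 0.320 and 0.334, but Suclg1 at 0.734, and Idh3a and Idh3b at 0.277 and 0.386, but Idh3g at 0.680.

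Among cardiomyocyte markers in NIA 4, Myl2 and Mb were at 34373 and 34061 CPM (other NIA hearts 9272 to 15035 and 11531 to 16629), while Ttn and Ryr2, whose transcripts are very long, were at 1240 and 470 (others 2518 to 8492 and 791 to 2224). Myh6 was low too, at 5356 (others 9662 to 39844). Tnni3, Actc1, Myl3 and Pln were the highest of the NIA hearts in NIA 4, and Tnnt2 was at 15936 (others 6840 to 18084). The part of transcript length in this was not tested.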
